A study of Mus musculus with 4 samples.

Results

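The TNF and TNF receptor superfamilies were read out in lung group 2 innate lymphoid cells (ILC2s), tissue-resident lymphocytes without antigen receptors that make type 2 cytokines. Members were taken by name: every gene whose symbol starts with Tnfsf or Tnfrsf, apart from antisense transcripts and pseudogenes, plus Tnf, Lta, Ltb, Ltbr, Cd27, Cd40, Cd70, Cd40lg, Fas and Fasl. This gave 42 of 55401 gene models, 18 ligands and 24 receptors. The cells were purified from lungs of C57BL/6 mice and stimulated over 6 h. In 1 group they received IL-33, an epithelial alarmin that activates them, and in the other IL-33 plus Ang II (angiotensin II, the peptide hormone through which renin raises blood pressure). IL-33 was thus present in every sample, and no unstimulated cells or cells with Ang II alone were analysed here. Each group has 2 libraries, each made by PCR amplification of cDNA from 500 cells. The labels give no genotype change, age or sex, and do not say whether the libraries came from separate mice or cultures, so any p-value measures only the spread between these libraries, which may be technical.

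Ligands of the TNF superfamily are mostly trimers held in the membrane or shed from it, and each binds 1 or a few receptors with cysteine-rich repeats outside the cell. Most receptors recruit TRAF adaptors and through them switch on NF-kB and MAP kinases, a signal that favours activation and survival. A smaller set carries a death domain, which can assemble caspase-8 or, with RIPK1, RIPK3 and MLKL, a lytic form of cell death, while decoy members bind ligand without passing a signal on. In ILC2s the receptors for TL1A (DR3), GITR ligand and OX40 ligand are known as costimulatory inputs beside the IL-33 receptor, and activated ILC2s can display OX40 ligand to T cells.

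Values are FPKM, that is, fragments normalised to gene length and sequencing depth, so that levels of different genes can be set side by side. The libraries summed to between 394808 and 431014 FPKM, and the depth behind them is unknown. The IL-33 libraries were close to copies of each other. Over the 9215 genes that averaged 1 FPKM or more, their log2(FPKM + 1) correlated at Pearson r = 0.994, against 0.568 for the Ang II libraries (across genes, which are not independent replicates). Of these genes, 1955 were listed at 0 in 1 Ang II library but not in the other, so a signal in a single Ang II library was common. At a depth estimated from low genes, the typical gene differed between the IL-33 libraries by 0.844 times counting noise, less than sampling alone gives, although stray genes raised the root mean square to 1.85 times. In the Ang II pair the typical difference was 13.1 times counting noise. The mean of the IL-33 pair was for this reason used as a single value (1 sample), so tests compare n = 1 with n = 2. Of 10 ILC2 markers, 9 stood at 5 FPKM or more, and their sum lay between 1517 and 1857 FPKM. Thy1 was the exception, at or below 0.09 FPKM in each library.

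Of the 42 members, 14 were listed at 0 in all 4 libraries, 6 more stayed below 1 FPKM, 2 peaked between 1 and 5 FPKM, and 20 reached 5 FPKM in at least 1 library. The same number, 20, had a mean of at least 1 FPKM and entered the test over all genes. Neither a member nor any other gene reached the threshold of 0.05 after adjustment (limma with Benjamini-Hochberg over 9215 genes), so the share called was 0.0%. The smallest adjusted p in the family was 0.174. Both Ang II values lay below both IL-33 values for 7 tested members, where 33.5% of all tested genes did so. They lay above for 3 members, where 24.4% of all tested genes did so. Groups overlapped for the other 10. Of the tested members, 8 averaged below 1 FPKM with IL-33 and entered only through an Ang II value, so each had to stand higher in at least 1 Ang II library. Another 2 were below 1 FPKM in both Ang II libraries and entered through IL-33 alone, so they could only be lower. The median difference of the 20 between Ang II and IL-33 was 0.19 in log2(FPKM + 1), against -0.0037 over all genes tested, and it was -0.41 in the first Ang II library and 0.07 in the second. These numbers rest on single libraries: refitted without the first Ang II library, 11 members were higher and the median was 0.37, and without the second 6 were higher and the median was -0.82.

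The receptor genes Tnfrsf18 and Tnfrsf9 held most of the family's FPKM and stood lower with Ang II. Tnfrsf18 encodes GITR, a costimulatory receptor that binds TRAF adaptors. It read 2353 and 2342 FPKM under IL-33 alone against 1013 and 1410.1 FPKM once Ang II was added, where the mean was 1211 ± 281 FPKM (SD, n = 2). Differences from limma are given throughout as Ang II minus IL-33 in log2(FPKM + 1). The groups did not overlap, and the IL-33 mean was 1.94-fold the Ang II mean (limma difference -0.97 with SE 0.33, adjusted p = 0.548). An antisense gene, Gm16008, overlaps Tnfrsf18 over its whole length, and without strand the reads of such partners cannot be told apart. By rank, Tnfrsf18 was at place 17 and 15 among all gene models with IL-33 and at place 46 and 26 with Ang II. Tnfrsf9 encodes CD137, another TRAF-binding costimulatory receptor that appears on activated lymphocytes. It read 1363 and 1367 FPKM under IL-33 alone against 773 and 578 FPKM once Ang II was added, again without overlap. The IL-33 mean was 2.02-fold the Ang II mean (limma difference -1.03 with SE 0.30, adjusted p = 0.480). Which Ang II library was lower differed between these genes: the first for Tnfrsf18 and the second for Tnfrsf9.

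**Figure D1:**
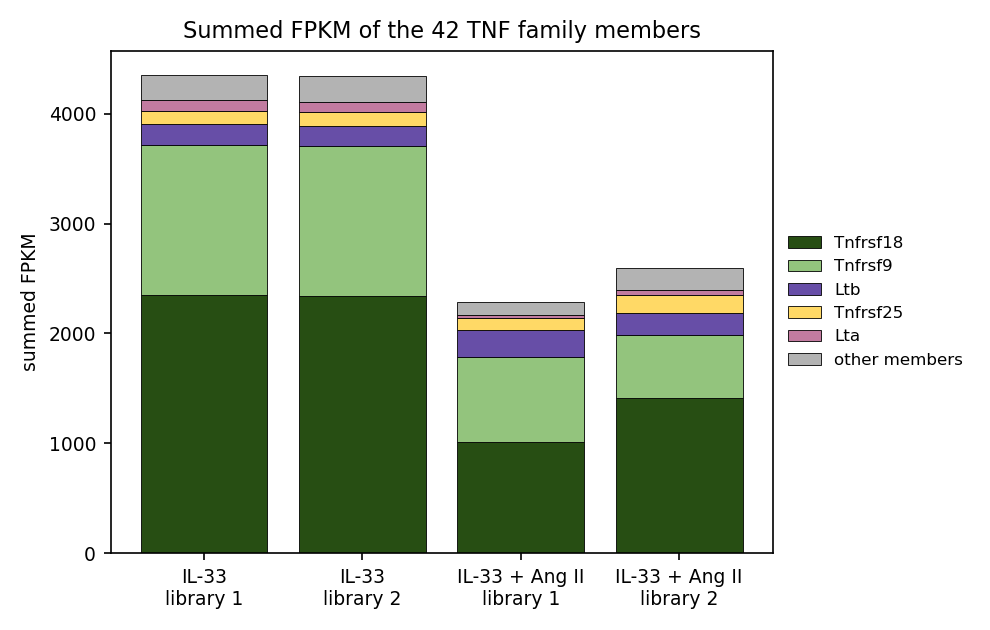
Stacked bars give the summed FPKM of the 42 members in each library (vertical axis, FPKM), coloured by member. The sum is 4355 and 4343 FPKM under IL-33 alone against 2283 and 2593 FPKM once Ang II was added, and most of the gap lies in the Tnfrsf18 and Tnfrsf9 segments.

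Summed over all 42 genes, the family took 1.01% of the FPKM under IL-33 alone, in each library, against 0.536% and 0.657% once Ang II was added. Tnfrsf18 and Tnfrsf9 together made up 85.3% and 85.4% of the family's sum with IL-33 and 78.2% and 76.7% with Ang II. Without these genes the remaining 40 members summed to 639 and 634 FPKM with IL-33 and to 497 and 605 FPKM with Ang II, a smaller gap in proportion. The receptor sum was 3960.2 and 3954 FPKM against 1941 and 2263 FPKM, and the ligand sum 394 and 389 FPKM against 342 and 329.9 FPKM. Haemoglobin transcripts took 5.83% and 5.78% of the FPKM with IL-33 and 0.897% and 0.401% with Ang II. Left out of the total, they put the family's share at 1.07% under IL-33 alone against 0.541% and 0.659% once Ang II was added. Their part in the lower family sum was not tested beyond this.

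Promoter windows of the 4 most abundant members, Tnfrsf18, Tnfrsf9, Ltb and Tnfrsf25, are shown because NF-kB, which acts below most of these receptors, is also known to drive family genes. Each runs from 250 bases before to 50 bases after a RefSeq transcription start, 5′ to 3′ on the gene's strand, on GRCm38.p6, the assembly of mm10. Capitals mark matches to the kappaB consensus or to the AP-1 motif TGANTCA, searched on both strands.

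Tnfrsf18, chr4:156026072-156026371, plus strand: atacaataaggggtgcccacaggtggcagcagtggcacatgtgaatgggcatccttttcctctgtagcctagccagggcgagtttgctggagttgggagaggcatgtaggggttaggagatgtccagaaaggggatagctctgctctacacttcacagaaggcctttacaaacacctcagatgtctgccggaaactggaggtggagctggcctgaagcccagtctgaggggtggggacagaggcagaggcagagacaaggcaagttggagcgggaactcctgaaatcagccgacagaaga

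Tnfrsf9, chr4:150927749-150928048, plus strand: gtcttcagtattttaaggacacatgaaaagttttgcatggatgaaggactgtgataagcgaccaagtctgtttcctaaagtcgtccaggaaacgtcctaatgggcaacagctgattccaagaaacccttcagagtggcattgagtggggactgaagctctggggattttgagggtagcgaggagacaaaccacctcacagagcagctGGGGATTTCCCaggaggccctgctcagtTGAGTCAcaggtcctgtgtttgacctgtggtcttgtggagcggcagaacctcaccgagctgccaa

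Ltb, chr17:35194257-35194556, plus strand: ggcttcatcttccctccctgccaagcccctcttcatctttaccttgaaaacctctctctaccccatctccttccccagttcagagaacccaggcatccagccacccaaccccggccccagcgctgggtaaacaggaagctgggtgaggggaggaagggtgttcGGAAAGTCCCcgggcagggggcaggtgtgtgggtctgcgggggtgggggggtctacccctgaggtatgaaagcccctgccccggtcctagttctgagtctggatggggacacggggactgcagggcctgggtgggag

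Tnfrsf25, chr4:152116093-152116392, plus strand: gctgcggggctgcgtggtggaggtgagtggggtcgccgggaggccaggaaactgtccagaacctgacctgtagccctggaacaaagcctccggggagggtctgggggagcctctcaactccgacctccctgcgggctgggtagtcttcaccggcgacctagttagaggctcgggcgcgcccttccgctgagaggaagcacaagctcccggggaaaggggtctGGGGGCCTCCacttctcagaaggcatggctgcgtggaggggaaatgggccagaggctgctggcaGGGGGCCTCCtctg

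Tnfrsf9 and Tnfrsf25 have 2 windows each in the RefSeq table, and the window with most matches was taken. The Tnfrsf9 window holds overlapping kappaB matches that begin at positions -43 and -42 from the start, and an AP-1 match at -15. Ltb has a kappaB match at -87, and Tnfrsf25 has kappaB matches at -28 and 37. Neither motif was found in the Tnfrsf18 window. In all, 32 of the 42 members had at least 1 window (36 windows in all), and 4 of these windows held a kappaB match (of Ltb, Tnfrsf8, Tnfrsf9 and Tnfrsf25), where 8.46% of all 32851 windows did. An AP-1 match stood in 7 of the 36 windows, from 6 members, where 7.81% of all windows held one. Members with a kappaB match differed in direction: Tnfrsf9 was lower in both Ang II libraries, Ltb higher, Tnfrsf25 overlapped, and Tnfrsf8 was listed at 0 throughout.

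Of 6 tested TRAF-binding receptors, 4 were lower in both Ang II libraries (Tnfrsf18, Tnfrsf9, Tnfrsf4 and Tnfrsf1b), where 33.5% of all tested genes were. The other 2, Cd40 and Tnfrsf13c, overlapped between groups. They passed the filter through the second Ang II library alone, so they could not be lower in both. Tnfrsf4 passed it through its IL-33 values alone, so it could only be lower. Tnfrsf4 encodes OX40. It read 50.2 and 52.2 FPKM under IL-33 alone and was listed at 0 in each library with Ang II (limma difference -5.71 with SE 0.59, adjusted p = 0.174). Its Ang II values are equal, so the spread behind that p was borrowed from genes of like level. A listed 0 in these files need not mean absence, since Polr2a, a gene that all cells use, read 5.64 and 6.37 FPKM under IL-33 alone and 0.05 FPKM in each Ang II library. Tnfrsf1b encodes TNFR2, the TNF receptor without a death domain. It read 57.4 and 59.7 FPKM under IL-33 alone against 0.15 and 14.7 FPKM once Ang II was added (limma difference -3.81 with SE 2.48, adjusted p = 0.775). The gap between its Ang II libraries was of the order of the gap between groups. Tnfrsf4 and Tnfrsf18 are neighbours on chromosome 4 (156013843 to 156016612 and 156026164 to 156028895, both on the plus strand), 9.55 kb apart. Tnfrsf1b lies on the same chromosome (145213463 to 145246870, minus strand), as does Tnfrsf9 (150914562 to 150946102, plus strand). These are the same 4 receptors named above as lower in both Ang II libraries, so their shared direction is not a separate result. Of the 9 members on chromosome 4, Tnfrsf25 and Tnfsf8 overlapped between groups, and Tnfrsf8, Tnfrsf14 and Tnfsf15 were listed at 0.

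T cells also make GITR, CD137 and OX40, and markers of T cells also read lower with Ang II. The 9 T cell markers summed to 251 and 249 FPKM under IL-33 alone against 118 and 23.9 FPKM once Ang II was added. All 8 tested ones were lower in both Ang II libraries, where 33.5% of all tested genes were. Among them Cd3e, Cd247, Cd4, Cd5 and Cd28, named after their values had been seen, stayed below 1 FPKM in both Ang II libraries. These passed the filter through their IL-33 values alone and could only be lower, so the comparison with 33.5% is not an even one. The part of T cells in the lower receptor values was not tested. Between the Ang II libraries, the second had the lower T cell sum, the lower Tnfrsf9 and the higher Tnfrsf18. In bulk samples, fewer cells of a type and less RNA per cell cannot be told apart. The NK markers Ncr1 and Klrb1c were listed at 0 in all 4 libraries, while the NK and ILC1 list summed to 34.8, 35.4, 0.1 and 13.3 FPKM. Nkg7 read 29.9 and 30.9 FPKM under IL-33 alone and was listed at 0 in each library with Ang II. Gzma read 0.17 and 0 FPKM against 0.07 and 13.3 FPKM. Of the 3 tested genes of that list, 2 were lower in both Ang II libraries and 1 overlapped. The lower 2, Nkg7 and Klrk1, passed the filter through their IL-33 values alone, so they could only be lower.

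**Figure D2:**
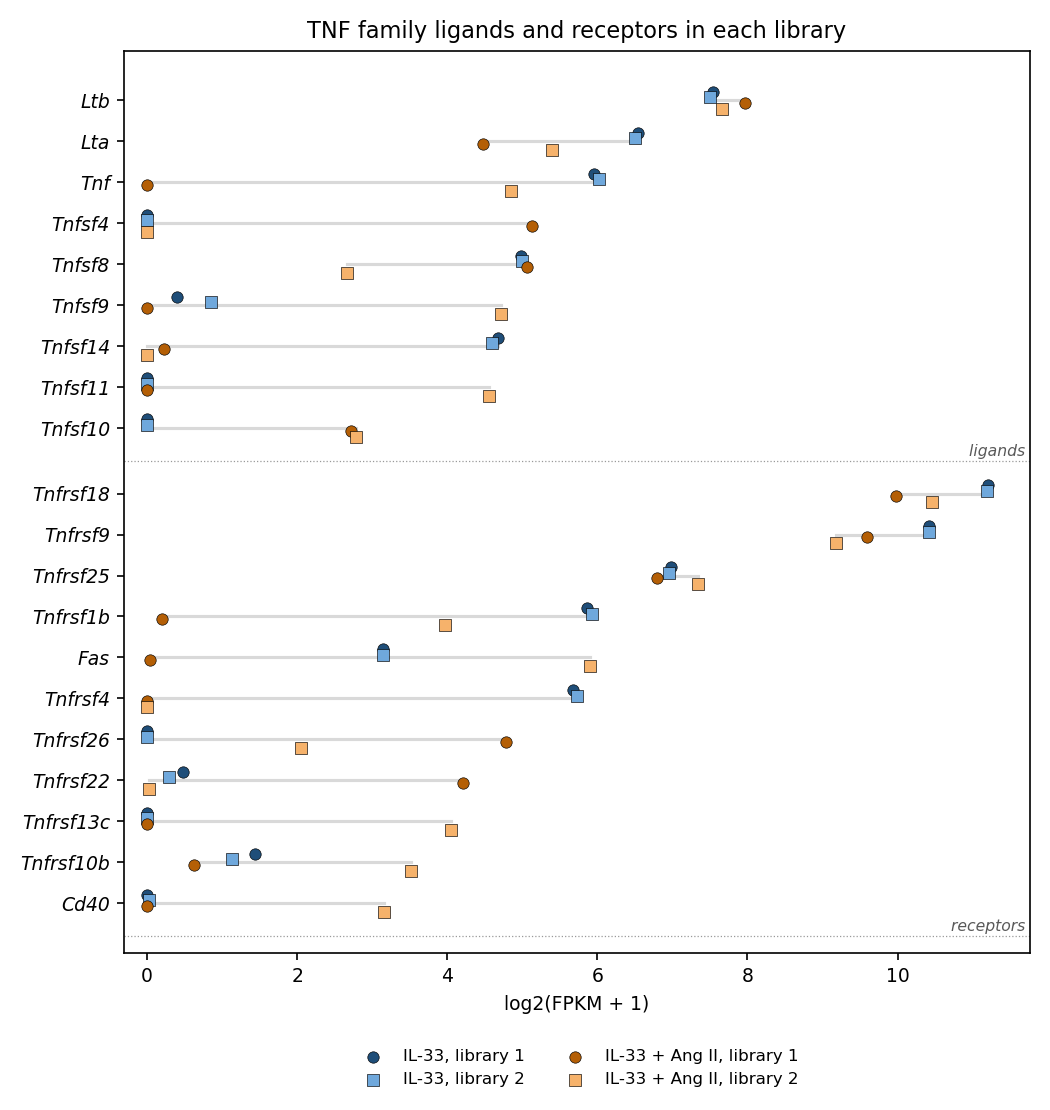
Points give log2(FPKM + 1) (horizontal axis) of the 20 members that reached 5 FPKM in at least 1 library, 1 point per library, offset vertically only so that they can be told apart; grey lines span the lowest to the highest library. The IL-33 points of a gene nearly coincide, while the Ang II points of Tnf, Tnfsf4, Fas and Tnfrsf1b lie far apart and those of Tnfsf10, Tnfrsf4 and Tnfsf14 lie close together.

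Among receptors with a death domain, Tnfrsf25 stayed abundant and Fas differed between the Ang II libraries. Tnfrsf25 encodes DR3, the receptor of TL1A. It read 126 and 123 FPKM under IL-33 alone against 110.2 and 160.4 FPKM once Ang II was added, on either side of the IL-33 values (limma difference 0.10 with SE 0.40, adjusted p = 0.917). Fas, the death receptor of Fas ligand, read 7.87 and 7.82 FPKM under IL-33 alone against 0.03 and 58.95 FPKM once Ang II was added. The Ang II libraries thus lay on opposite sides of the IL-33 values, and no direction can be read (limma difference -0.17 with SE 3.81, adjusted p = 0.986). Tnfrsf10b, the mouse death receptor for TRAIL, showed the same order at lower level, with 1.70 and 1.19 FPKM against 0.55 and 10.4 FPKM. Tnfrsf1a, which encodes the death domain receptor of TNF, did not exceed 0.17 FPKM in any library, and Tnfrsf21 was listed at 0 in all 4.

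Tnfrsf22, Tnfrsf23 and Tnfrsf26 lie side by side on chromosome 7, and the highest value of Tnfrsf22 and Tnfrsf26 was in the first Ang II library. Tnfrsf22, a TRAIL-binding receptor without a death domain, read 0.39 and 0.23 FPKM under IL-33 alone against 17.5 and 0.02 FPKM once Ang II was added. Tnfrsf26 was listed at 0 under IL-33 alone but read 26.45 and 3.14 FPKM once Ang II was added (limma difference 3.41 with SE 1.87, adjusted p = 0.775). Tnfrsf23 did not exceed 0.49 FPKM. Transcripts of Tnfrsf22 and Tnfrsf23 share 17.6% and 21.8% of their 50-base words with each other, so fragments may have been shared out between these copies, and the value of Tnfrsf22 is uncertain. Tnfrsf11b, the soluble decoy for RANK ligand, lies on chromosome 15 and reached 1.07 FPKM in the second Ang II library alone.

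The last receptors with a signal, Cd40 and Tnfrsf13c, were seen in the second Ang II library alone. Cd40 encodes a costimulatory receptor of B cells, macrophages and dendritic cells, and read 0 and 0.02 FPKM under IL-33 alone against 0 and 7.91 FPKM once Ang II was added. Tnfrsf13c encodes the BAFF receptor of B cells and was listed at 0 apart from 15.55 FPKM in that library. The 5 B cell markers summed to 17.3, 14.6, 52.0 and 1.92 FPKM in the same order of libraries. Cd79b carried most of the first 3 sums, with 14.6, 11.9, 50.5 and 0.28 FPKM, whereas Ms4a1, named after its values had been seen, was highest in the second Ang II library (0.09, 0.04, 0.07 and 1.30 FPKM). The part of B cells in the Cd40 and Tnfrsf13c values was not tested. Cd27 reached 2.72 FPKM in the second Ang II library and at most 0.05 FPKM elsewhere, and it overlaps Vamp1 on the opposite strand.

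Among ligands, the lymphotoxin and TNF genes sit in 1 cluster on chromosome 17 and differed in direction. Ltb, which encodes lymphotoxin beta, the membrane anchor of the lymphotoxin heterotrimer, read 186 and 180.3 FPKM under IL-33 alone against 248 and 202 FPKM once Ang II was added. Both Ang II values were the higher, by a small step (limma difference 0.29 with SE 0.26, adjusted p = 0.775). Lta, which encodes lymphotoxin alpha, its soluble partner, read 92.1 and 89.9 FPKM under IL-33 alone against 21.3 and 41.0 FPKM once Ang II was added, lower in both (limma difference -1.59 with SE 0.66, adjusted p = 0.656). The ratio of Ltb to Lta within a library was 2.02 and 2.01 with IL-33 and 11.7 and 4.93 with Ang II. Tnf, the founding cytokine of the family, stood at 60.8 and 63.9 FPKM with IL-33, was listed at 0 in the first Ang II library and stood at 27.7 FPKM in the second (limma difference -3.56 with SE 3.15, adjusted p = 0.775). Ltb (35194439 to 35196320, plus strand), Tnf (35199381 to 35202007, minus strand) and Lta (35203165 to 35205351, minus strand) lie 3.06 and 1.16 kb apart. Macrophages are a rich source of TNF, and the 10 macrophage, monocyte and dendritic cell markers summed to 1938 and 1904 FPKM under IL-33 alone against 1921 and 868 FPKM once Ang II was added. Members of that list differed in direction: Lyz2 read 1699.6 and 1668 FPKM against 1016 and 683 FPKM, while Chil3 read 212 and 209.7 FPKM against 696 and 158.0 FPKM. Adgre1 and Marco, named after their values had been seen, read 24.2 and 23.6 FPKM against 0.06 and 0.04 FPKM, and 0 in both IL-33 libraries against 191 and 23.2 FPKM. Itgax, Flt3 and Cd209a were listed at 0 throughout. The part of these cells in the Tnf values was not tested.

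Tnfsf14 was the ligand with the lowest unadjusted p and Tnfsf10 the next. Tnfsf14 encodes LIGHT, a ligand of HVEM and of the lymphotoxin beta receptor. It read 24.7 and 23.3 FPKM under IL-33 alone against 0.17 and 0 FPKM once Ang II was added (limma difference -4.53 with SE 0.52, adjusted p = 0.181). Tnfsf10 encodes TRAIL, a ligand of death receptors. It was listed at 0 under IL-33 alone but read 5.57 and 5.92 FPKM once Ang II was added, the closest agreement of Ang II libraries among members that were above 0 in both (limma difference 2.75 with SE 0.57, adjusted p = 0.364). With Tnfrsf4, these were the only 3 tested members at an unadjusted p under 0.05, where 13.6% of all tested genes were (10.8% lower and 2.79% higher with Ang II). Tnfsf10 passed the filter on the mean through its Ang II values alone, and Tnfrsf4 and Tnfsf14 through their IL-33 values alone. The filter thus fixed the direction of each. In a fit of 2 libraries against 2, limma placed these 3 members past the adjusted threshold (adjusted p = 0.00576 for Tnfrsf4 and Tnfsf14 and 0.0116 for Tnfsf10). In that fit 13.0% of all tested genes were called lower and 5.34% higher. It takes the nearly identical IL-33 libraries as independent samples, which the labels do not state, and its p-values would be too small if they are not.

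The remaining ligands had a signal in 1 Ang II library only or differed between these libraries. Tnfsf8, which encodes CD30 ligand, read 30.6 and 30.8 FPKM under IL-33 alone against 32.5 and 5.33 FPKM once Ang II was added. Tnfsf4, the gene of OX40 ligand, was listed at 0 in every library except the first with Ang II, where it stood at 34.2 FPKM. Tnfsf9, the gene of CD137 ligand, which overlaps Gm11110 on the other strand, read 0.32 and 0.81 FPKM under IL-33 alone against 0 and 25.4 FPKM once Ang II was added. Tnfsf11, which encodes RANK ligand, was seen in the second Ang II library alone, at 22.6 FPKM. No direction can be read for these 4 genes, whose groups overlapped. Across the 20 tested members, 12 differed by more than 2 on the log2(FPKM + 1) scale between the Ang II libraries, where 38.8% of all tested genes did. Among the 12 are 6 that averaged below 1 FPKM with IL-33 and passed the filter through 1 Ang II library. For these a wide gap between the Ang II libraries was built in, so the count is not read as a trait of the family.

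**Figure D3:**
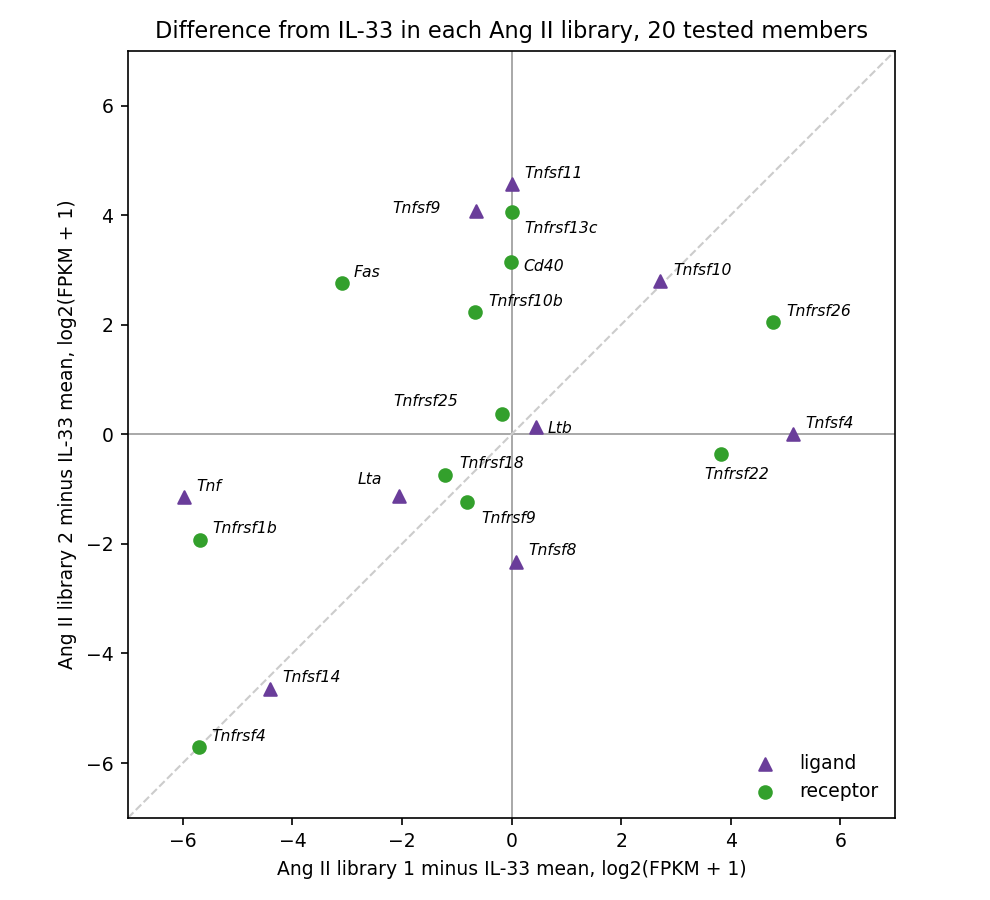
Each of the 20 tested members is placed by its difference from the IL-33 mean in the first (horizontal axis) and in the second Ang II library (vertical axis), both in log2(FPKM + 1); triangles are ligands, circles receptors, and the dashed line marks equal differences. Tnfrsf4, Tnfsf14, Tnfrsf18, Tnfrsf9 and Tnfsf10 lie near that line, while Fas, Tnfsf9, Tnfsf11 and Tnfsf4 lie far from it.

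Of the members that stayed below 1 FPKM in each library, 9 were ligands and 11 receptors. Cd70, Cd40lg, Fasl, Tnfsf12, Tnfsf13, Tnfsf13b, Tnfsf15, Tnfsf18 and Tnfsfm13 were the ligands, all listed at 0 in all 4 libraries. The ligands of 3 abundant receptors differed in this respect: those of GITR (Tnfsf18) and DR3 (Tnfsf15) were listed at 0, and that of CD137 (Tnfsf9) was above 1 FPKM in the second Ang II library alone. Of 18 ligand and receptor pairs set out for the family, both partners reached 1 FPKM in 1 pair in each IL-33 library (Tnf with Tnfrsf1b). That number was 0 in the first Ang II library and 3 in the second (Tnf with Tnfrsf1b, Tnfsf9 with Tnfrsf9, and Tnfsf10 with Tnfrsf10b). These counts hold for the 18 pairs only, which are a selection. No pair with Lta was included, although Lta was above 1 FPKM in each library. Tnfsf10 with the TRAIL-binding Tnfrsf22 was also left out, and these read 5.57 and 17.5 FPKM in the first Ang II library.

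Genes that act below the receptors were taken from a list of 40 adaptors, ubiquitin enzymes, kinases and death effectors. Of these, 33 were tested, 11 were higher in both Ang II libraries, 14 were lower in both and 8 overlapped, beside 24.4% higher and 33.5% lower over all genes tested, with 0 past the adjusted threshold of limma. Of the 33, 9 averaged below 1 FPKM with IL-33 and entered through an Ang II value alone, and 6 of these are among the 11 higher ones. Their median difference was -0.24 in log2(FPKM + 1), beside -0.0037 for all genes tested. It was 0.053 without the filter on low values and -0.58 with a filter at 5 FPKM, so its sign depends on the filter. At an unadjusted p under 0.05 stood 5 genes, where 13.6% of all tested genes did: Casp8 and Ripk3 higher, and Tnip2, Ripk1 and Map3k14 lower. Ripk3 passed the filter through its Ang II values alone, and Tnip2, Ripk1 and Map3k14 through their IL-33 values alone. The filter thus fixed the direction of each of these, and the counts of 11 and 14 both hold genes that could go only 1 way. Ripk1 and Map3k14 were named after their values had been seen. Genes of the lytic and apoptotic arms differed in direction: Ripk3, Mlkl and Casp8 were higher in both Ang II libraries, while Ripk1 was lower in both. Ripk3, the kinase that activates MLKL, read 0.05 and 0.07 FPKM under IL-33 alone against 42.3 and 94.6 FPKM once Ang II was added (limma difference 5.92 with SE 0.85, adjusted p = 0.239). Mlkl, which encodes the membrane-disrupting effector, stood at 69.7 and 68.9 FPKM against 185 and 277 FPKM (limma difference 1.69 with SE 0.42, adjusted p = 0.424). Casp8, the initiator caspase of death receptors, stood at 74.1 and 71.2 FPKM against 160.0 and 150.4 FPKM (limma difference 1.08 with SE 0.22, adjusted p = 0.356). The upstream kinase gene Ripk1 was lower in both Ang II libraries, with 8.20 and 7.80 FPKM against 0.02 and 0.16 FPKM. Tradd, the adaptor that links TNFR1 to RIPK1, was listed at 0 under IL-33 alone but read 0.12 and 24.2 FPKM once Ang II was added.

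Adaptors, ubiquitin enzymes and kinases of the TRAF arm differed in direction. The other listed genes that reached 20 FPKM in a library, of this arm or not, were as follows. Traf1, Traf2, Birc3, Rbck1, Tnip2, Tbk1, Tax1bp1 and Siva1 were lower in both Ang II libraries. Traf4, Sharpin, Tank and Tnfaip3 were higher in both, and Tab2, Otulin and Traf3ip2 overlapped. Traf2, the main adaptor of TNFR2 and CD137, read 44.3 and 45.2 FPKM under IL-33 alone against 4.16 and 32.05 FPKM once Ang II was added. Birc3, which encodes a ubiquitin ligase that travels with TRAF2, stood at 72.6 and 74.3 FPKM against 9.51 and 56.6 FPKM. Traf1 differed less, with 52.3 and 53.3 FPKM against 49.4 and 30.4 FPKM. In these 3 the IL-33 values were the higher, and none had an unadjusted p under 0.05. Traf4, another TRAF adaptor, read 0.04 and 0 FPKM under IL-33 alone against 20.9 and 5.80 FPKM once Ang II was added. Tbk1, a kinase that TANK binds, stood at 50.5 and 52.3 FPKM against 43.7 and 13.4 FPKM. Rbck1, part of the linear ubiquitin ligase, stood at 66.3 and 67.3 FPKM against 7.98 and 33.99 FPKM, whereas its partner Sharpin stood at 18.2 and 19.3 FPKM against 25.2 and 27.3 FPKM. Tnip2, which encodes a partner of the inhibitor A20, read 37.1 and 34.3 FPKM under IL-33 alone and was listed at 0 in each library with Ang II (limma difference -5.20 with SE 0.54, adjusted p = 0.174). Tnfaip3, the gene of A20 itself and a feedback target of NF-kB, stood at 26.6 and 26.2 FPKM against 32.7 and 42.4 FPKM. Map3k14, the kinase NIK of the noncanonical NF-kB route that lymphotoxin beta receptor, OX40 and CD40 use, stood at 9.96 and 8.53 FPKM against 0.62 and 0.86 FPKM (limma difference -2.56 with SE 0.53, adjusted p = 0.362).

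**Figure D4:**
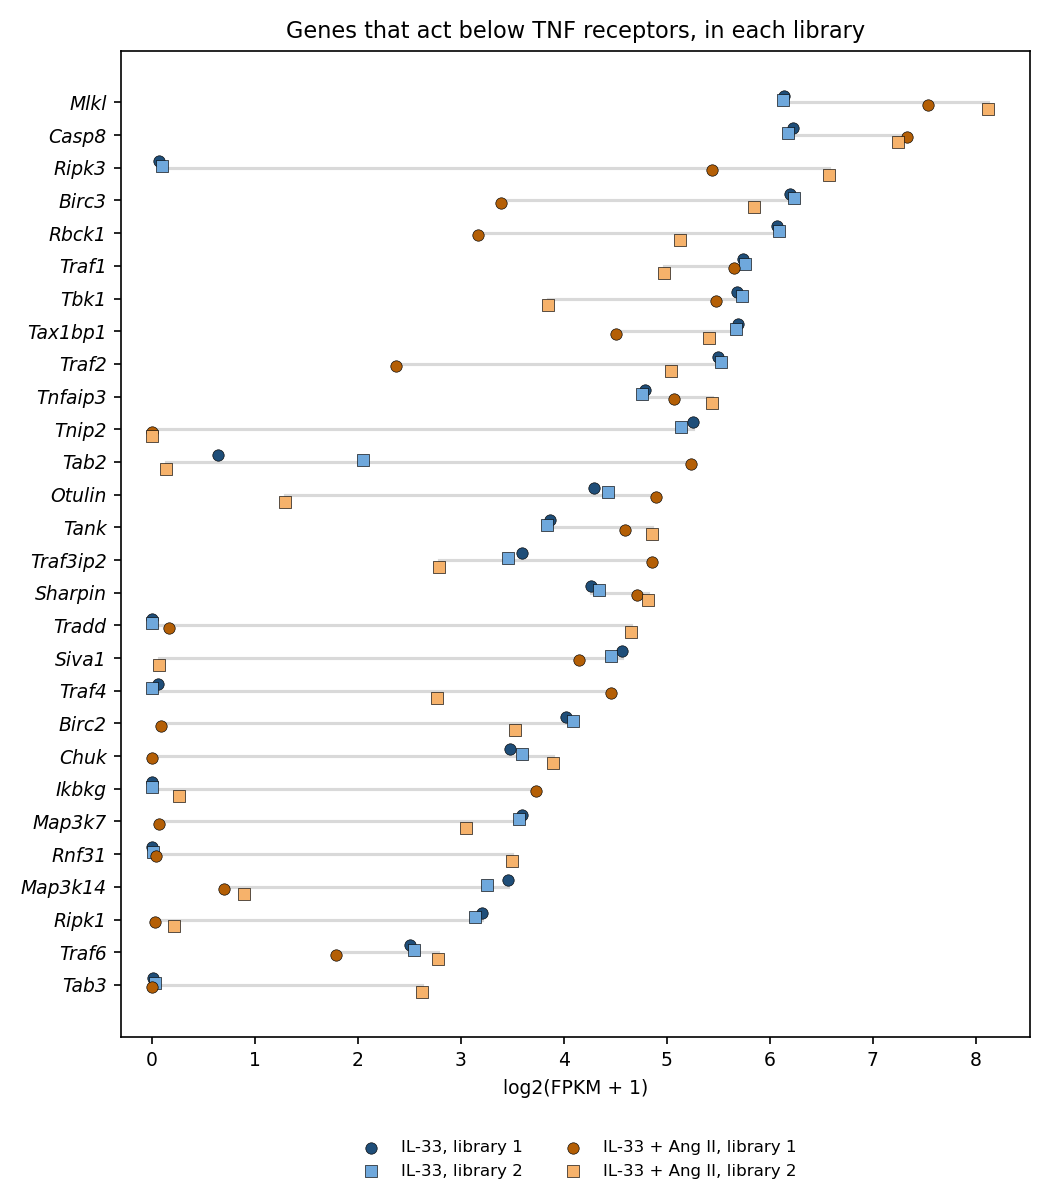
Points give log2(FPKM + 1) (horizontal axis) in each library for the 28 signalling genes that reached 5 FPKM in at least 1 library, ordered by their highest value; points are offset vertically only so that they can be told apart. Mlkl, Casp8 and Ripk3 lie to the right in both Ang II libraries, and Tnip2 and Ripk1 lie near 0 in both.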

How the data were processed

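RNA-seq of 4 samples was analysed, in 2 groups of 2 by their titles. The deposited values are gene-level FPKM, per the file headers, and carry 2 decimals; both Ang II columns come from 1 table. The submitters' processing notes name mm10, HISAT, StringTie and edgeR without version or role; the annotation, like the use of strand, is not given in the sources used here. No counts were used and depth is unknown, so no counting interval is given. An amplified library from 500 cells can lose a transcript or multiply it. The IL-33 libraries were averaged and counted as 1 sample.

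limma 3.58.1 in R 4.3.3 was run on log2(FPKM + 1) of the 9215 genes that averaged 1 FPKM or more over these 3 values (eBayes with trend, 1 residual degree of freedom, two-sided, Benjamini-Hochberg over all genes, threshold 0.05); variation of the single IL-33 value is taken to equal that of the Ang II libraries. Fold changes on this scale understate those of low genes. The code was tested on simulated data. Members were read from that fit; no p was adjusted over the family. The level of 1 marker gene is not reported here. The family and the lists were chosen with earlier results of these data known. Members with at least 5 FPKM in a library were named with each value, others by counts; signalling genes that reached 20 FPKM in a library were open to naming. Gene positions come from GENCODE M21 (GRCm38, the assembly of mm10) and promoter windows from RefSeq (GRCm38.p6). Alternatives covered the counting of IL-33 libraries, a replicate block, pseudocounts, filters, scalings and leaving out each library; scaling without haemoglobin genes was chosen after seeing the data.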

Additional observations from a re-analysis of the deposited data

How the results depend on the processing

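No setting placed a family member past the adjusted threshold except the fit of 2 against 2, with 3 members, 6 signalling genes and 1665 of all genes; the replicate block, filters, pseudocounts, scalings and leaving out an IL-33 library gave 0. The block by replicate number removed these calls, leaving 0, with medians of -0.10 over all genes and -0.44 over the signalling list. The labels give no shared source for equal numbers, and deviations of same-numbered libraries correlated at -0.019. Without each library in turn, tested members higher with no overlap numbered 3 to 11 (11 without the first Ang II library, 6 without the second) and lower ones 7 to 9, while the family's median ran from -0.82 (without the second Ang II library, where fewer members pass the filter) to 0.37. For all genes the leave-one-out median ran from -0.15 to 0.0056, and for the signalling list from -0.37 to -0.22. Without an Ang II library no test remains. The median of all genes was -0.10 with 2 against 2, -0.12 from 5 FPKM and 0.16 with quantile normalization, a shift of 0.16. The signalling median was -0.44 with 2 against 2, -0.32 with a pseudocount of 0.1, -0.12 with 5, -0.58 from 5 FPKM, 0.053 without a filter and -0.10 with quantile normalization; the cause was not tested. Fas turned sign with a pseudocount of 5 (0.48) and with quantile normalization (0.026). Under each scaling, Tnfrsf18, Tnfrsf9, Lta and Tnfrsf4 stayed lower and Ltb and Tnfsf10 higher with Ang II. Depth is unknown, so what a listed 0 allows cannot be given.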

Other observations

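Sheddases and processing enzymes of TNF family ligands had little signal. Of 6 genes, Furin, a convertase that cleaves several ligands, was the exception, at 18.8 and 16.04 FPKM under IL-33 alone against 19.7 and 14.1 FPKM once Ang II was added, overlapping between groups. Adam17, the TNF sheddase, did not exceed 0.07 FPKM in any library, and Rhbdf1 was listed at 0. Adam10 reached 2.29 FPKM in the first Ang II library.

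Some members overlap transcripts on the other strand, and the labels do not say whether strand was used in counting. Gm16008, antisense to Tnfrsf18 over the whole gene (2732 bases), read 30.1 and 28.1 FPKM under IL-33 alone against 0.55 and 22.1 FPKM once Ang II was added. Gm11110, which overlaps Tnfsf9 over 618 bases, read 15.96 and 15.7 FPKM under IL-33 alone against 27.3 and 0 FPKM once Ang II was added, where Tnfsf9 was at 0 and 25.4 FPKM. Tnfrsf9 lies opposite Camta1, which stood between 0.73 and 3.39 FPKM. Reads of such partners cannot be told apart without strand.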
